A study of Mus musculus with 8 samples.

Results

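The alpha-defensin genes of the mouse small intestine were taken as every row of the deposited count table whose GENCODE M21 symbol starts with Defa. This gave 39 genes, 22 annotated as protein coding and 17 as pseudogenes, of 56941 gene identifiers in the table, and all 39 lie on chromosome 8. Of these, 30 had at least 1 count in some library. The other 9, which are the coding gene Defa33 and 8 pseudogenes, had 0 counts in every library.

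Alpha-defensins are small cationic antimicrobial peptides stabilised by disulphide bonds. In the mouse small intestine they are made by Paneth cells at the base of the crypts, which store them in granules as inactive precursors, and the protease encoded by Mmp7 cuts these precursors into active peptides. The genes form a cluster of recent duplicates, so that many copies are nearly identical in the parts that are read by sequencing. The number and sequence of the copies differ between inbred strains.

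The samples were pieces of jejunum, which lies between duodenum and ileum, of mice that had received no treatment. The strains were C57BL/6, called B6 below, and C3H/HeJ, called C3H, both inbred. The labels give an age of 6 to 8 weeks and shared cages for 8 weeks or longer until tissue was taken. Both cannot hold for mice of 6 weeks at tissue collection, so the age at that time is uncertain. C3H/HeJ mice carry a defective Tlr4, the lipopolysaccharide receptor. Bulk RNA was sequenced from 4 libraries of each strain, all marked as batch 1, and the replicate numbers are 2, 3, 4 and 5 for B6 and 1, 3, 4 and 5 for C3H. No label says that each library came from a different mouse, so the p-values rest on a spread between libraries that may be technical.

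The libraries held 37205896 to 58251332 counts. The 6 Paneth cell markers checked (Lyz1, Mmp7, Mptx2, Itln1, Habp2 and Ang4) were all detected, with a summed level of 1934 to 2983 CPM (counts scaled to the library total, as defined with the processing) in B6 and 1751 to 2755 in C3H. Of the markers of neighbouring regions, ileal Fabp6 totalled 2 counts in B6 and 20 in C3H and ileal Slc10a2 totalled 260 and 220. Gata4 and Pdx1, factors of the proximal intestine, were present, Gata4 with 30489 (B6) and 29028 (C3H) counts and Pdx1 with 3039 and 3980, and neither passed the test between strains (edgeR adjusted p = 0.999 and 0.146). Pancreatic enzyme transcripts (5 markers, each detected in some libraries of both strains) summed to 0.203 to 152 CPM in B6 and 0.0981 to 1840 CPM in C3H and were highest in B6 2, B6 3, C3H 3 and C3H 5. Their part in the results was not tested, but values without these 4 libraries are given where they differ. In bulk tissue fewer Paneth cells and less defensin RNA per cell cannot be told apart.

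The coding members, together with 6 further alpha-defensin genes of the same chromosome stretch that RefSeq names Defa and GENCODE M21 does not, were sorted into 5 copy groups by the identity of their coding sequences (average linkage at 90%). Each group is called here after its member with the most counts. The Defa24 group holds Defa23, Defa25, Defa30, Defa31, Defa3, Defa27, Defa28, Defa17 and Defa24. The Defa21 group holds Defa21, Defa22, Defa2, Defa33, Defa20 and Defa32, and the Defa35 group holds Defa35, Defa5, Defa36, Defa37, Defa34 and Gm15293. The Defa29 group holds Defa29, Gm14851, Gm7849, Gm7861 and AY761184, and the Defa26 group holds Defa26 and Gm15292. Of the 22 coding members, 12 had another coding copy at an identity of at least 99%.

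The pairs below are shown because the copies of a pair are nearly the same gene, yet their counts parted between the strains in the first 2 pairs and moved together in the third. The sequences are the coding sequences of the GENCODE M21 transcripts without the stop codon, 279 bases each, with the bases that differ within a pair in capitals. Positions are counted from 1 at the first coding base. Defa24 and Defa30 differ by T72C, G154T, A174G and T259A, with the base of Defa24 first.
Defa24: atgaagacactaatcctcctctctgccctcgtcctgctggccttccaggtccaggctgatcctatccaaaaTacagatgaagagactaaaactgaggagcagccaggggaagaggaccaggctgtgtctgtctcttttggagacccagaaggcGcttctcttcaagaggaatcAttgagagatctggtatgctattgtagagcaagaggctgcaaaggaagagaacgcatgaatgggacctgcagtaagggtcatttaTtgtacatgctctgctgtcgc
Defa30: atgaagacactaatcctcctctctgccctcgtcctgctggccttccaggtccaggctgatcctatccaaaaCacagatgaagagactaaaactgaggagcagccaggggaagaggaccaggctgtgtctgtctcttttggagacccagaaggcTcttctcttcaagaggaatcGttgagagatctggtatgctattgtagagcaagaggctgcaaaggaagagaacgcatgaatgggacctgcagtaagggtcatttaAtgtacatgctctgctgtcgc

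Defa35 and Defa5 differ by T50C, T135C and T168A, with the base of Defa35 first.
Defa35: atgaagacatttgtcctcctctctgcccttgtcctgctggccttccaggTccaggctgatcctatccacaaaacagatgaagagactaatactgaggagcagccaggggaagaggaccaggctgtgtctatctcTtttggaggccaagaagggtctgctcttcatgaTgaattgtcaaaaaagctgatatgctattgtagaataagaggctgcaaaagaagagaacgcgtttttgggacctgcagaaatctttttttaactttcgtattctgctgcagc
Defa5: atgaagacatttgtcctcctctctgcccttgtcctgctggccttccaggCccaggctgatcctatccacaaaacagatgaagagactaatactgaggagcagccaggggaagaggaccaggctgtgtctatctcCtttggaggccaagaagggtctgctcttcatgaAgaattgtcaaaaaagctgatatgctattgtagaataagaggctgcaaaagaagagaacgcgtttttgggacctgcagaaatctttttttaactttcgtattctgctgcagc

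Defa21 and Defa22 differ by T114G and T204A, with the base of Defa21 first.
Defa21: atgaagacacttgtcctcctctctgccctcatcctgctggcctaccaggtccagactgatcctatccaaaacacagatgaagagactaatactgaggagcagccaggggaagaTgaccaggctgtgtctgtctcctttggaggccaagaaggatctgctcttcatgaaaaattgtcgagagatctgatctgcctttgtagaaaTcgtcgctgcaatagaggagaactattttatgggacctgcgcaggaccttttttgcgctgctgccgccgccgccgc
Defa22: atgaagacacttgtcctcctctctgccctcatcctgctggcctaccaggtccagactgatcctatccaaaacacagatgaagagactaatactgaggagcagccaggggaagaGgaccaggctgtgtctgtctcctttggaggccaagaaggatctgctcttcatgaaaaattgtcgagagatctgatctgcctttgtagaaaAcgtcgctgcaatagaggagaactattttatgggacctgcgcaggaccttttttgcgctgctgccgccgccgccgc

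Because of such likeness a read may fit more than 1 copy. As a measure of this, each gene's annotated transcripts were cut into all stretches of 50 bases, and the share found in no transcript of another gene was taken. It was 71.9% for Defa24, 56.6% for Defa29, 47.6% for Defa30, 40.1% for Defa35, 27.1% for Defa21 and 25.1% for Defa22. It was 8.05% for Defa17 and 0.306% for Defa5, and 11 of the 22 coding members had less than 10%. Defa31, Defa2, Defa33, Defa20, Defa32 and Defa37 had no stretch of their own, so the level of each of these single genes is uncertain. The reference genome is that of C57BL/6J, and reads of a C3H copy that this genome lacks cannot be told apart from reads of the copy they resemble most.

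RefSeq promoter windows (GRCm38.p6, 250 bases before to 50 after the annotated start) were at hand for 12 of the 39 members. They are shown for a gene with 0 counts in C3H, a gene far higher in C3H and a gene lower in C3H, to let their likeness be seen. The 250 bases before the start are printed 5′ to 3′ on the gene's strand, which is the plus strand for each. Capitals mark TATAAA, the usual letters of a TATA box, and ATCAAAG, the complement of CTTTGAT, a form of the sequence bound by TCF factors of the Wnt pathway. The windows are chr8:21025295-21025544 for Defa21, chr8:21064788-21065037 for Defa35 and chr8:21134400-21134649 for Defa30.
Defa21: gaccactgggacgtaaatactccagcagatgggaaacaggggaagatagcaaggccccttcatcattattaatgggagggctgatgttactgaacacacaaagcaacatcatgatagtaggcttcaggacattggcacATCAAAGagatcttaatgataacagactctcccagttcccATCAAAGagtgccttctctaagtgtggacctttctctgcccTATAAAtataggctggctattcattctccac
Defa35: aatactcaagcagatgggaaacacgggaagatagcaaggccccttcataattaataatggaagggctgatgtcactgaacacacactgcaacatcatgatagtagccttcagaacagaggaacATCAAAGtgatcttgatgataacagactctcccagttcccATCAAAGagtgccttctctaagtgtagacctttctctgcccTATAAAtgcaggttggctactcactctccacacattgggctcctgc
Defa30: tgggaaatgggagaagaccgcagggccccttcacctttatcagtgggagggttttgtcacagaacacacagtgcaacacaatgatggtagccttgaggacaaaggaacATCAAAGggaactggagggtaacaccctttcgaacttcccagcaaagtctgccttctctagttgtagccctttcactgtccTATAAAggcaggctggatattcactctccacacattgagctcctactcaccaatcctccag

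TATAAA was found on either strand in 11 of the 12 windows, Defa28 being the exception, and in 13.62% of all 32851 RefSeq windows of the same length. CTTTGAT was found in 12 of 12 windows against 3.73% of all windows, the related CTTTGAA in 0 of 12 against 5.14%, and CCAAT in 12 of 12 against 37.41%. The windows of duplicated genes are not independent, and these letters were searched with the windows already seen. The Defa21 and Defa22 windows were identical, and Defa21 and Defa35 were 82.9% identical over the whole window with 2 CTTTGAT matches each. Defa30 had 1 such match and was 72.7% identical to Defa35 (56 mismatches, 30 gap bases) and 65.8% to Defa21 (53 mismatches, 60 gap bases). Defa21 and Defa35 differed by 24 mismatches and 30 gap bases. Gap bases, also those at the window ends, count against these identities. Counted from the annotated start, TATAAA began at -31 in Defa21, -46 in Defa35 and -61 in Defa30, so the windows are shifted against each other. All windows are of the reference genome, and no C3H promoter sequence was used. The part of the promoters in the differences between strains was not tested.

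The first question was which alpha-defensin genes differed between the strains. In C3H, 3 members were higher and 13 lower, of 20 with enough counts to test, and 4 did not pass the test (edgeR quasi-likelihood test on all genes, Benjamini-Hochberg adjusted p under 0.05). Over all 18025 genes tested 21.4% were called, 11.3% higher and 10.1% lower in C3H. Without the 4 libraries rich in pancreatic transcripts 15 members were called, 2 higher and 13 lower. In all 8 libraries the same 16 members had CPM values that did not overlap between the strains, against 24.4% of all genes tested. The median log2 fold change (C3H over B6) of the 20 members was -2.47, also with genes at 0 in C3H set to their bound, against 0.025 over all genes tested. Of the 20 members, 6 had 0 counts in C3H and passed the filter on low counts through B6 alone, so that these counts describe the family and are no test of it. The remaining 10 members with any count had at most 23 counts over all 8 libraries and were not tested.

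**Figure D1:**
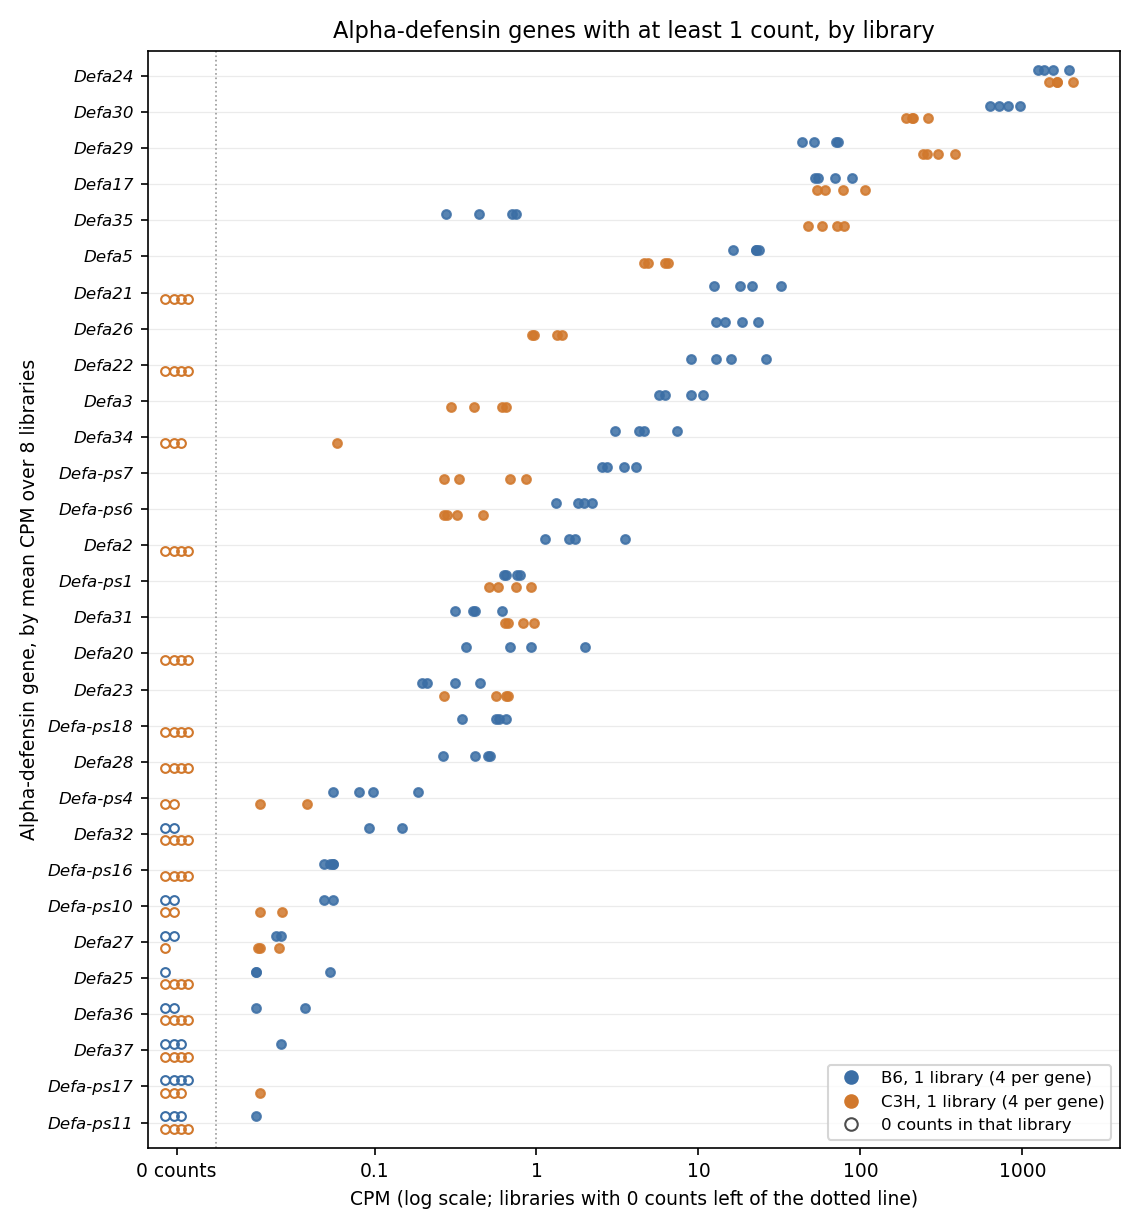
CPM of the 30 alpha-defensin genes with at least 1 count (log axis), 1 point per library, B6 in blue and C3H in orange, with open points for libraries at 0 counts. Defa35 and Defa29 lie higher in C3H, Defa24 and Defa17 overlap, and Defa21 and Defa22 have points for B6 and open points for C3H.

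Below, the values of single libraries are given in the order B6 2, 3, 4 and 5 and C3H 1, 3, 4 and 5, and means are CPM ± SD with n = 4 libraries in each strain. Fold changes of genes at 0 in a strain are lower bounds, computed as if that strain's 4 libraries had held 3 counts together (0.0161 CPM in B6 and 0.0167 CPM in C3H). With 1 to 3 counts the ratio is given with its 95% exact interval, and bounds and intervals cover counting error only.

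The Defa24 group makes up most of the family's RNA. Defa24 (ENSMUSG00000064213), the most abundant member in each strain, had raw counts of 58641, 51152, 73277 and 104326 in B6 and 105444, 85097, 64217 and 54813 in C3H. B6 5 and C3H 1 were the highest libraries of their strains. Its mean was 1525 ± 302 CPM in B6 and 1703 ± 255 CPM in C3H. The strains overlapped, with a log2 fold change of 0.16 (standard error 0.16, edgeR adjusted p = 0.551) and a 95% interval of -0.16 to 0.48.

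Defa30 (ENSMUSG00000074444), whose coding sequence is 98.6% identical to that of Defa24, was lower in C3H. It had 30683, 25804, 39082 and 51939 counts in B6 against 13379, 10808, 8295 and 7128 in C3H, and the strains did not overlap. The mean was 783 ± 142 CPM in B6 and 218 ± 30.7 CPM in C3H, a fall of 3.59-fold (log2 fold change -1.84, standard error 0.15, edgeR adjusted p = 6.02e-06). The ratio of Defa30 to Defa24 counts was steady within each strain. It was 0.523, 0.504, 0.533 and 0.498 in the B6 libraries and 0.127, 0.127, 0.129 and 0.130 in the C3H libraries.

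Defa17 (ENSMUSG00000060208) overlapped between the strains. Its counts were 2635, 2155, 2977 and 4794 in B6 and 5461, 4087, 2356 and 2020 in C3H, or 66.7 ± 16.7 and 75.0 ± 23.8 CPM. The log2 fold change was 0.17 (standard error 0.22, edgeR adjusted p = 0.650) with an interval of -0.26 to 0.60, and it was -0.061 without C3H 1. Its coding sequence is 100% identical to that of Defa3, and the totals of Defa3 were 1476 counts (B6) and 92 counts (C3H). Defa3 fell 15.6-fold (log2 fold change -3.96, standard error 0.28, edgeR adjusted p = 2.04e-06). Only 7.76% of the 50-base stretches of Defa3 and 8.05% of those of Defa17 were their own. The level of Defa3 and that of Defa17 are therefore uncertain, and how reads were split between these genes was not tested.

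The rest of the group was scarce. Defa28 was counted 10, 17, 27 and 28 times in B6 and never in C3H, a difference of at least 26.3-fold. Defa31 and Defa23, whose coding sequences are 100% identical, had 79 and 57 counts in B6 against 142 and 100 in C3H. Defa31 had 23, 17, 17 and 22 counts in B6 against 49, 43, 25 and 25 in C3H, and was 1.81-fold higher in C3H (log2 fold change 0.85, standard error 0.24, edgeR adjusted p = 0.0283). The call did not survive the removal of B6 3, B6 4, B6 5, C3H 1 or C3H 3, taken singly, or of the 4 libraries rich in pancreatic transcripts, with edgeR adjusted p of 0.0676 to 0.0931. Defa23 had 8, 8, 17 and 24 counts in B6 against 34, 34, 22 and 10 in C3H, and did not pass (log2 fold change 0.86, standard error 0.34, edgeR adjusted p = 0.0990), except without C3H 5 (1.06, adjusted p = 0.0294). Defa25 and Defa27 had 4 and 5 counts over all libraries.

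Added together before the fit, the counts of the Defa24 group did not pass (log2 fold change -0.25, standard error 0.17, edgeR adjusted p = 0.336, interval -0.58 to 0.08). The summed level was 2384 ± 462 CPM in B6 and 1998 ± 309 CPM in C3H. The fall of Defa30 thus stood beside a larger Defa24 whose level overlapped between the strains.

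The Defa21 group had no count in any C3H library. Defa21 (ENSMUSG00000074447) had 677, 1318, 678 and 1154 counts in B6, which is at least 1228-fold above C3H. Defa22 (ENSMUSG00000074443), 99.3% identical in its coding sequence, had 485, 1064, 489 and 858, at least 929-fold above C3H. In both, B6 3 was the highest library. The ratio of Defa22 to Defa21 was 0.716, 0.807, 0.721 and 0.744 in the B6 libraries.

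Smaller counts were seen for the other copies of that group. Defa2 had 65, 144, 61 and 85 counts in B6, at least 114-fold above C3H, and Defa20 had 26, 81, 20 and 50, at least 56.8-fold. Defa32 had 0, 6, 0 and 5 counts in B6, at least 3.53-fold. The edgeR adjusted p was 4.61e-06 for Defa21, 1.12e-05 for Defa22, 0.000150 for Defa2 and 0.00146 for Defa20, while Defa32 had too few counts to test and Defa33 had none. The tested genes of this group passed the filter on low counts through B6 alone, so their p-values add no support beyond the counts. Defa2 and Defa33 have identical coding sequences, as do Defa20 and Defa32. Defa2, Defa20 and Defa32 had no 50-base stretch of their own, so their counts cannot be given to 1 copy with certainty. The group's sum was 33.3, 64.0, 23.1 and 39.95 CPM in B6 against 0 in each C3H library. This sum does not depend on how counted reads were split within the group. If reads that fit several copies were left out of the counts, the sum lacks them too.

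The Defa35 group changed its leading copy. Defa35 (ENSMUSG00000061845) had 28, 18, 15 and 38 counts in B6 against 4053, 3032, 2805 and 1760 in C3H, or 0.542 ± 0.222 and 64.1 ± 14.3 CPM. The difference was 119-fold (log2 fold change 6.90, standard error 0.28, edgeR adjusted p = 2.91e-08). Defa5 (ENSMUSG00000074439), at 98.9% coding identity, moved the other way. It had 860, 929, 890 and 1279 counts in B6 against 316, 254, 255 and 172 in C3H, or 21.4 ± 3.36 and 5.55 ± 0.946 CPM, and fell 3.86-fold (log2 fold change -1.95, standard error 0.15, edgeR adjusted p = 4.32e-06). The ratio of Defa35 to Defa5 was 0.0169 to 0.0326 in B6 and 10.2 to 12.8 in C3H.

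Defa34 had 173, 301, 166 and 230 counts in B6 against 3, 0, 0 and 0 in C3H. All 3 of its C3H counts came from C3H 1, the ratio of B6 to C3H was 279 (95% counting interval 95.2 to 1356), and without C3H 1 the gene had 0 counts in C3H. The edgeR adjusted p was 2.02e-06, but the gene passed the filter on low counts through B6 alone. Defa36 and Defa37 had 3 and 1 counts, all in B6. Only 0.306% of the 50-base stretches of Defa5 were its own, against 40.1% for Defa35, so the level of Defa5 is uncertain. The members of the group summed to 26.8 ± 4.79 CPM in B6 and 69.7 ± 15.2 CPM in C3H, and the sum was higher in C3H (log2 fold change 1.38, standard error 0.17, edgeR adjusted p = 0.000178).

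Among the longer coding genes of the Defa29 group, Defa29 (ENSMUSG00000074437) rose in C3H. Its counts were 2726, 2106, 2351 and 3806 in B6 and 19689, 15796, 10149 and 9056 in C3H, or 59.5 ± 14.3 and 297.9 ± 64.0 CPM. The rise was 5.01-fold (log2 fold change 2.32, standard error 0.19, edgeR adjusted p = 8.09e-06), and every C3H library lay above every B6 library. The copies of this group that RefSeq names Defa38 (Gm14851) and Defa39 (AY761184) were lower in C3H.

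Gm14851 had 19936, 15695, 23016 and 34058 counts in B6 against 3442, 2660, 2027 and 1711 in C3H, and fell 9.11-fold (log2 fold change -3.19, standard error 0.18, edgeR adjusted p = 4.19e-07). AY761184 had 18887, 16430, 20513 and 33119 counts in B6 against 14306, 10677, 7615 and 6118 in C3H, and fell 2.25-fold (log2 fold change -1.17, standard error 0.19, edgeR adjusted p = 0.000988). Defa29 counts were 0.102 to 0.137 times those of Gm14851 in B6 and 5.01 to 5.94 times in C3H, at a coding identity of 97.4%. Summed with these copies, the group was lower in C3H (1027 ± 230 against 563 ± 122 CPM, log2 fold change -0.87, standard error 0.18, edgeR adjusted p = 0.00606). The direction for this kind of defensin therefore turns on whether the copies without a Defa symbol are counted.

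The same held for the Defa26 group. Defa26 totalled 3236 counts in the B6 libraries and 216 in those of C3H and fell 14.6-fold (log2 fold change -3.86, standard error 0.22, edgeR adjusted p = 4.54e-07). Gm15292, which RefSeq names Defa40 and whose coding sequence is 97.8% identical, had 418, 301, 354 and 729 counts in B6 against 3556, 2868, 1784 and 1655 in C3H, and rose 5.57-fold (log2 fold change 2.48, standard error 0.23, edgeR adjusted p = 2.03e-05). Their sum was 26.9 ± 7.89 CPM in B6 and 54.9 ± 11.9 CPM in C3H (log2 fold change 1.03, standard error 0.20, edgeR adjusted p = 0.00403). The remaining 3 copies outside the Defa symbols, Gm15293, Gm7849 and Gm7861, had 20, 20 and 53 counts in B6 against 0 in C3H.

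**Figure D2:**
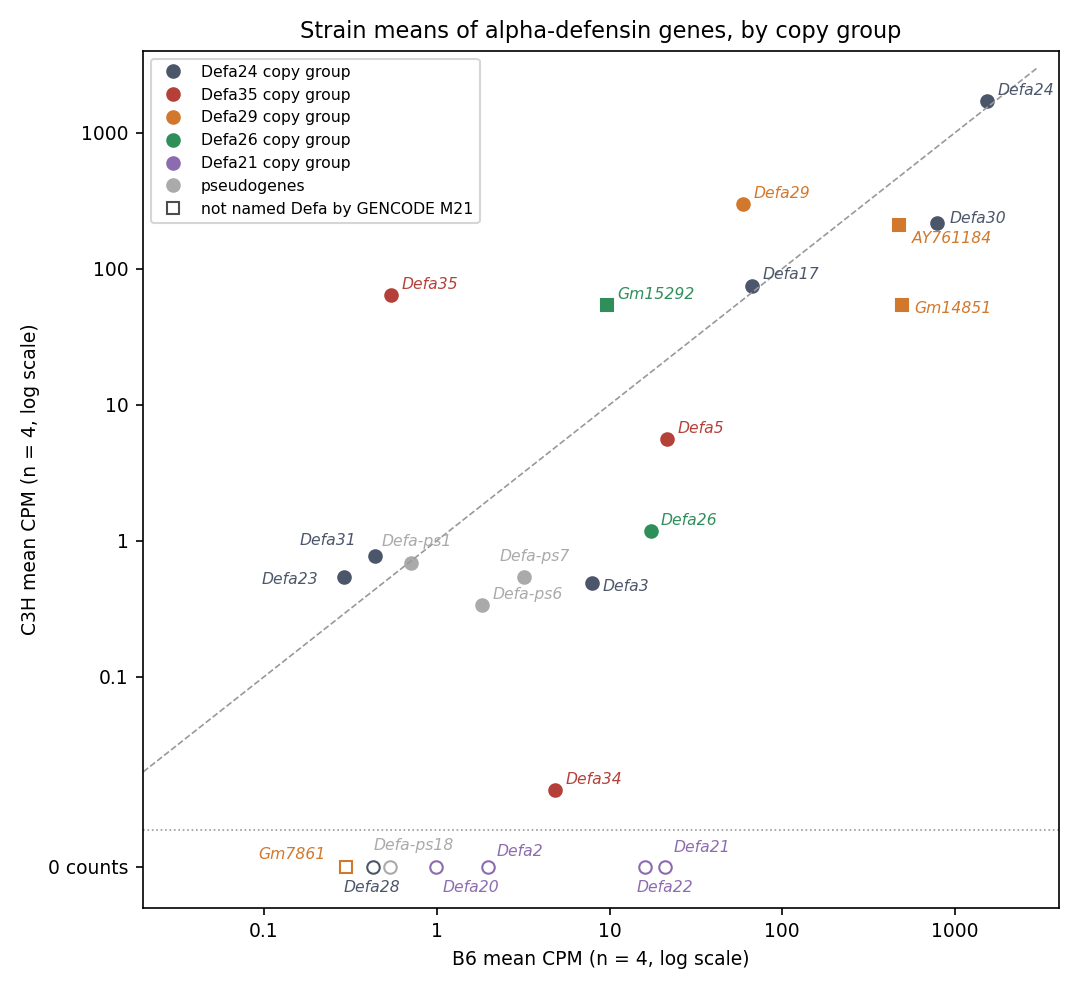
Mean CPM in B6 (x axis) against mean CPM in C3H (y axis), both on log axes with n = 4, for the 24 alpha-defensin genes with at least 50 counts over all libraries, coloured by copy group. Squares are genes without a Defa symbol, open symbols had 0 counts in C3H, and the dashed line marks equal means. Of the 20 members shown, 14 lie below the line, and the Defa24, Defa35, Defa29 and Defa26 groups each have copies on both sides of it.

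The pseudogenes had few counts, and 3 of 4 tested were lower in C3H, with none higher. Over all genes tested 10.1% were lower and 11.3% higher. The pseudogene members summed to 6.46 ± 0.930 CPM in B6 and 1.59 ± 0.415 CPM in C3H. The share of 50-base stretches of their own was 66.4% for Defa-ps7, 35.2% for Defa-ps6, 32.2% for Defa-ps1 and 29.8% for Defa-ps18. Their counts may thus include reads of other copies. Defa-ps18 was counted 13, 23, 32 and 35 times in B6 and never in C3H, a difference of at least 33.0-fold (edgeR adjusted p = 9.93e-05). It passed the filter on low counts through B6 alone, so this p-value adds no support beyond the counts. Defa-ps7 and Defa-ps6 had 592 and 338 counts in B6 against 103 and 61 in C3H, and fell 5.74-fold and 5.35-fold (edgeR adjusted p = 0.000179 and 3.34e-05). Defa-ps1 had 130 and 123 counts and overlapped between the strains (log2 fold change -0.035, standard error 0.22, edgeR adjusted p = 0.934). For Defa-ps16 the B6 counts were 2, 2, 3 and 3 and the C3H counts 0, a difference of at least 3.21-fold. Defa-ps4 totalled 20 counts against 3, which is 6.42 to 1 (interval 1.90 to 33.7), and Defa-ps10, Defa-ps11 and Defa-ps17 had 7, 1 and 1 counts in all.

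The second question was which genes were seen in 1 strain only, meaning 0 counts over 4 libraries of one strain and at least 10 counts over the other. There were 8 such members, and all 8 were seen in B6. They were Defa21, Defa22, Defa2, Defa20, Defa32, Defa28, Defa-ps18 and Defa-ps16, and 5 of them had at least 100 counts in B6. The reverse pattern, 0 counts in B6 with at least 10 in C3H, was found in 0 members. The reference genome is of the B6 background, so a copy held by C3H alone has no row of its own. The reverse pattern could thus appear only for genes that this genome also holds. How many of all genes showed either pattern was not counted, so these numbers describe the family and are no test of it. The B6 libraries had 24 to 27 members with at least 1 count and the C3H libraries 14 to 18, without overlap. The 8 members seen in B6 only are part of this difference, so it is no separate observation. Over all genes the numbers with at least 1 count overlapped, 25155 to 26079 in B6 and 25220 to 26483 in C3H. Total depth overlapped, with 48693077 counts in C3H 3, 37205896 in B6 2 and 41432293 in B6 3. The part of depth in the number of members seen was not tested.

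Next, the make-up of the member counts was compared, without the 6 further alpha-defensin genes. Defa24 held 59.3% to 61.1% of the member counts in the B6 libraries and 70.9% to 73.0% in the C3H libraries. Defa30 held 29.9% to 32.2% in B6 and 9.001% to 9.49% in C3H. Defa29 held 1.94% to 2.77% in B6 and 11.5% to 13.2% in C3H, and Defa35 held 0.0124% to 0.0285% and 2.34% to 3.18%. The B6 libraries spread 99% of their member counts over 8 or 9 genes and the C3H libraries over 5.

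Levels of different genes were compared per length, as mean CPM per kilobase of exon. The order is among the members only, and it makes no allowance for reads that fit several copies. Only 8.05% of the 50-base stretches of Defa17 and 0.306% of those of Defa5 were their own, against 71.9% for Defa24. The places of Defa17 and Defa5 are therefore uncertain. Of the further alpha-defensin genes, Gm14851, AY761184 and Gm15292 were at 1404, 943 and 25.0 in B6 and at 154, 420 and 139 in C3H. In B6 the order was Defa24 (3639 ± 721), Defa30 (1968 ± 356), Defa17 (168 ± 42.1), Defa29 (117 ± 28.1), Defa5 (57.0 ± 8.95), Defa21 (50.4 ± 19.9), Defa26 (46.4 ± 12.5) and Defa22 (38.1 ± 17.4). The last 4 lay within 1 SD of their neighbours in that order. In C3H it was Defa24 (4065 ± 610), Defa29 (586 ± 126), Defa30 (548 ± 77.2), Defa17 (189 ± 59.8), Defa35 (161 ± 35.9) and Defa5 (14.8 ± 2.52). There Defa29 and Defa30 lay within 1 SD of each other, as did Defa17 and Defa35.

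**Figure D3:**
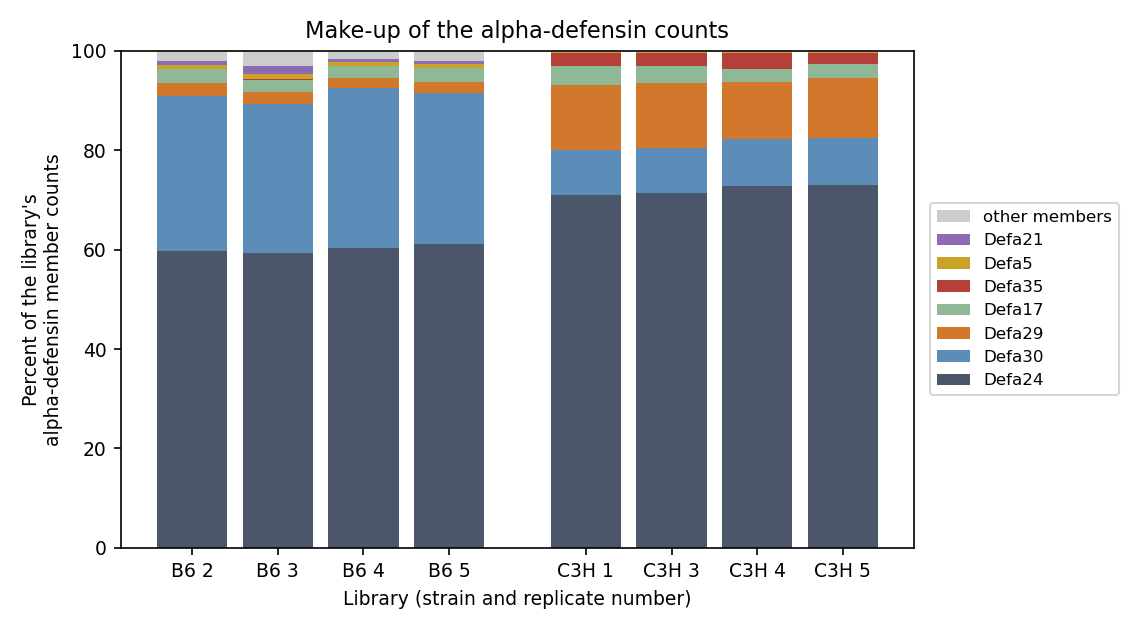
Share of each library's alpha-defensin member counts held by 7 genes and by all other members, in percent, with B6 on the left and C3H on the right. Defa30 takes about 30.9% of the bar in B6 and 9.24% in C3H, and Defa29 about 2.34% and 12.5%.

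Most of the total was Defa24, whose level overlapped between the strains. The total differed less between the strains than any called member. Summed over the 39 members, it was 2611, 2111, 2242 and 3172 CPM in B6 and 2915, 2289, 2256 and 2015 CPM in C3H. The means were 2534 ± 475 and 2369 ± 384 CPM, a ratio of C3H to B6 of 0.935, and the strains overlapped. Leaving out 1 library at a time gave ratios of 0.863 to 1.02, the highest without B6 5. The members made up 0.208% to 0.316% of all counts in B6 against 0.184% to 0.330% in C3H.

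Beneath this total the balance shifted. Without Defa24 the sum was 1009 ± 174 CPM in B6 and 665 ± 130 CPM in C3H, a ratio of 0.659, and the C3H libraries lay below the B6 libraries. Without Defa24 and Defa30 it was 226 ± 43.8 and 447 ± 99.9 CPM, a ratio of 1.98, and the C3H libraries lay above. With the 6 further alpha-defensin genes added to the members, it was 3511 ± 694 and 2688 ± 454 CPM, a ratio of 0.765, with overlap. Those 6 genes alone summed to 977 ± 220 CPM in B6 and 319 ± 70.0 CPM in C3H, and the C3H libraries lay below.

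**Figure D4:**
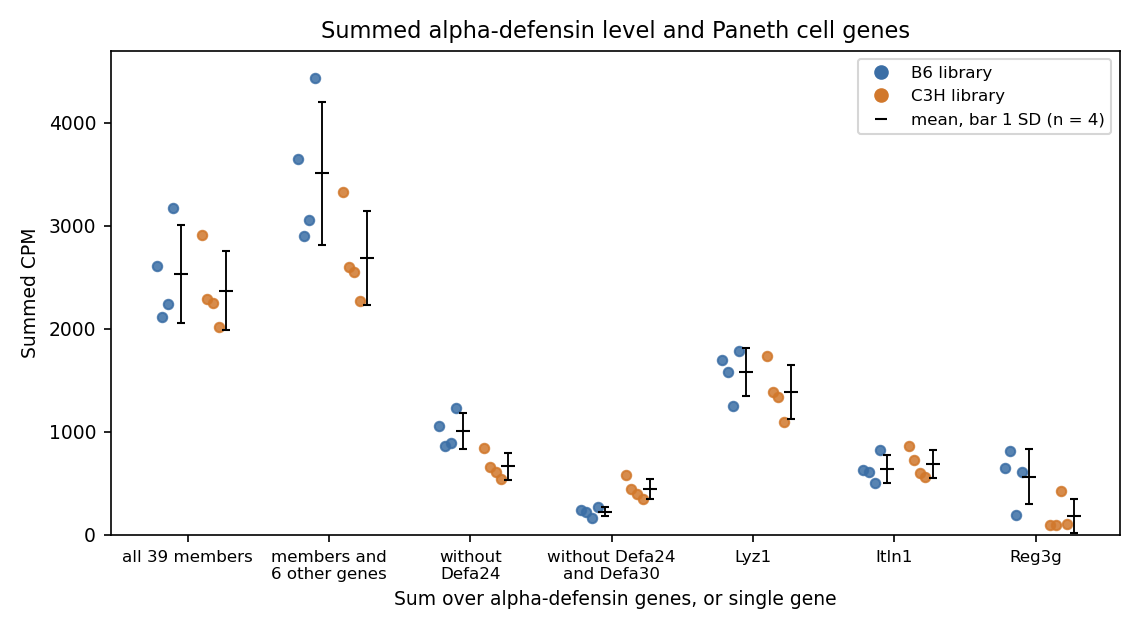
Summed CPM by library for all 39 members, for the members with the 6 further alpha-defensin genes, for the members without Defa24 and without Defa24 and Defa30, and for the single genes Lyz1, Itln1 and Reg3g, with mean and SD (n = 4). The strains overlap for all 39 members, while C3H lies below B6 without Defa24 and above it without Defa24 and Defa30.

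The totals were set beside other genes of the same cell. Lyz1, the lysozyme of Paneth cells, was 1578 ± 233 CPM in B6 and 1387 ± 262 CPM in C3H and did not pass (log2 fold change -0.19, standard error 0.16, edgeR adjusted p = 0.475). Mmp7, which encodes the protease that activates the precursors, was 46.7 ± 12.9 and 64.7 ± 14.9 CPM (log2 fold change 0.47, standard error 0.21, edgeR adjusted p = 0.135). The member total was 0.872 to 1.16 times the summed Paneth cell markers in B6 and 1.02 to 1.15 times in C3H, with overlap. Relative to Mmp7 it was 45.6 to 68.3 in B6 and 33.8 to 41.7 in C3H, without overlap. Of the C3H libraries, C3H 1 was the highest and C3H 5 the lowest for the member total (2915 and 2015 CPM), the Paneth cell markers (2755 and 1751), the stem cell markers (494 and 264) and the proliferation markers (249.8 and 126). The enterocyte markers were lowest in C3H 1 (17556 CPM) and highest in C3H 5 (29531 CPM). The part of crypt content in the spread of the totals was not tested.

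A list of 40 further Paneth cell and defensin-processing genes was read beside the family. All 40 were tested, 3 were higher in C3H, 7 were lower and 30 did not pass, with a median log2 fold change of -0.071 against 0.025 over all genes tested. The 10 called genes are 25.0% of the list, where 21.4% of all genes were called.

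Among the higher genes, Pla2g2a, an antibacterial phospholipase that Paneth cells secrete and whose gene is disrupted in C57BL/6, was 5.68, 4.95, 3.68 and 7.05 CPM in B6 and 937, 780, 516 and 475 in C3H, or 127-fold higher (log2 fold change 6.99, standard error 0.30, edgeR adjusted p = 5.12e-08). Csf1r, the receptor of colony stimulating factor 1 best known from macrophages, was 61.8 ± 4.71 CPM in B6 and 78.7 ± 2.80 CPM in C3H (1.27-fold, edgeR adjusted p = 0.00933). Lrrk2, a kinase with a role in lysozyme sorting in Paneth cells, was 3.50 ± 0.286 and 4.56 ± 0.408 CPM (1.31-fold, edgeR adjusted p = 0.0360). Without the 4 libraries rich in pancreatic transcripts neither Csf1r nor Lrrk2 passed (edgeR adjusted p = 0.295 and 0.224), and Lrrk2 also failed in 6 of the 8 fits that left out 1 library, those without B6 2 and without C3H 5 excepted (0.0587 to 0.0985).

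Among the lower genes was Mptx2, a pentraxin of Paneth cells, at 182, 106, 68.2 and 189 CPM in B6 and 3.41, 3.59, 3.76 and 4.16 in C3H, a fall of 36.5-fold (log2 fold change -5.19, standard error 0.32, edgeR adjusted p = 7.69e-07). Ang4, an antimicrobial ribonuclease, was 98.5 ± 27.3 CPM in B6 and 42.3 ± 13.8 CPM in C3H (2.32-fold lower, edgeR adjusted p = 0.00384, and 0.0578 without the 4 libraries). Copz2, a subunit of the vesicle coat, was 1.91 ± 0.217 and 0.632 ± 0.212 CPM (edgeR adjusted p = 0.000472), and the chemokine Ccl6 was 126 ± 14.9 and 87.6 ± 2.69 CPM (edgeR adjusted p = 0.00194). Gfi1, Ephb2 and Agr2 were the other lower genes. Nod2, a sensor of bacterial cell wall fragments, was 1.97 ± 0.466 and 1.59 ± 0.297 CPM and did not pass (log2 fold change -0.31, standard error 0.20, edgeR adjusted p = 0.324).

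**Figure D5:**
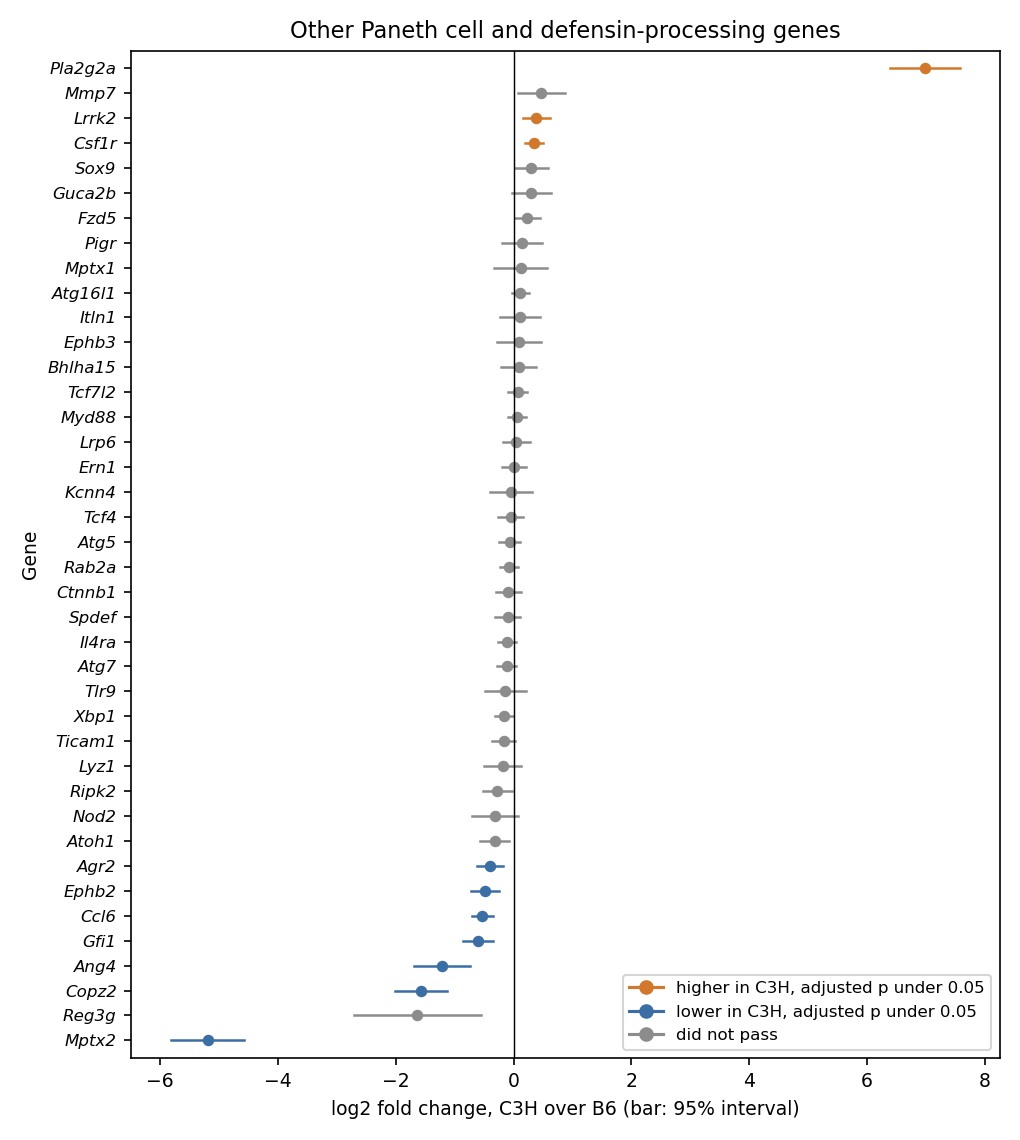
Log2 fold change (C3H over B6) of the 40 further Paneth cell and defensin-processing genes, with bars for the 95% interval. Pla2g2a at 6.99 and Mptx2 at -5.19 lie far from the rest, and 30 genes in grey did not pass the test.

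Beta-defensins, the related peptides of other epithelia, were nearly absent. Of 43 genes with a Defb symbol, 36 had 0 counts in all libraries, the highest had 18 counts over all 8, and the sums were 37 counts in B6 against 19 in C3H.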

How the data were processed

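Jejunal RNA of 4 B6 and 4 C3H libraries was sequenced after extraction with a miRNeasy kit and stranded mRNA preparation from 200 ng of RNA, per the labels' protocols. The authors deposited 1 table of raw counts per Ensembl gene. STAR 2.7.9a, HTSeq 2.0.2 and GRCm39 are named in the submitters' processing notes. The annotation release, the strand setting and the treatment of reads that fit several copies were not given in the sources used here, and each of these can move counts between close copies or overlapping genes.

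Symbols and transcripts came from GENCODE M21 (build GRCm38), so no gene coordinates are given, and 51948 of 56941 identifiers had a symbol. Promoter windows came from RefSeq on GRCm38.p6. Counts were tested with edgeR 4.0.16 (R 4.3.3) by the quasi-likelihood F test with TMM scaling, filterByExpr and Benjamini-Hochberg adjustment over 18025 genes at 0.05, and the script was tested on simulated data. CPM are counts over the TMM-scaled library total, times 1000000. Standard errors are the size of the log2 fold change over the root of F, and 95% intervals are normal ones from these. DESeq2 1.42.0 and limma 3.58.1 gave alternatives. Coding identity was taken from global alignments (Biopython 1.88). Same-strain libraries differed by far more than counting noise (chi-square per degree of freedom 23.3 to 89.6).

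The members and lists were chosen with earlier results of these data known. Genes described by library were the 6 with the highest CPM in each strain, those seen in 1 strain only, the 5 largest changes in each direction, and from the Paneth list Lyz1, Mmp7, Nod2 and up to 4 per direction by adjusted p. Defa26, Defa3, the scarce pseudogenes, Gm14851, AY761184, Gm15292, Itln1 and Reg3g were added after their values were seen. The further alpha-defensins were first set as every other gene between the first and the last Defa gene, and were narrowed to the 6 that RefSeq names Defa.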

Additional observations from a re-analysis of the deposited data

Results flagged for a closer look

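Of 61 sets of 4 libraries checked for 1 value far from the other 3, 2 stood out, where chance alone gives about 1 in 20. Defa5 was 16.4 CPM in B6 4, against 22.8 to 23.7 CPM in the other B6 libraries. Its fall in C3H passed the test with each library left out in turn, B6 4 included. Defa34 was 0.0588 CPM in C3H 1, which is 3 counts, against 0 in the other C3H libraries.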

How the results depend on the processing

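The count of called members was 9 (7 of them lower in C3H) of 11 tested when only genes averaging 100 counts or more were tested, since fewer members were then tested, and 15 to 18 under the other alternatives. Leaving out each library in turn gave 15 to 17 called members, with 2 to 4 higher and 13 lower. Over all alternatives, 253 of 264 values of the named members kept their direction and side of the threshold. The exceptions were Defa31, Defa23 and Defa17, whose uncalled log2 fold change of 0.17 was -0.061 to 0.34 without 1 library, below 0 without C3H 1, and turned to -0.044 with the 6 libraries of shared number and no block and to -0.018 with the block. In the list of Paneth cell genes, without the 4 pancreas-rich libraries 4 were called, 1 higher and 3 lower, with 2 libraries left per strain, and Lyz1 was at 0.0079 in place of -0.19. Leaving out each library gave 8 to 10 called genes of that list. The total's ratio was 0.659 without Defa24 and 0.765 with the 6 further genes, and 0.924 to 0.983 under other scalings. Members seen in 1 strain only were 5 with at least 100 counts, 10 where up to 3 counts were allowed in the other strain, and 6 to 9 without 1 library. Replicate numbers 3, 4 and 5 are shared. Deviations of same-numbered libraries from their strain means correlated at 0.006, 0.18 and -0.05, and those of unlike number at -0.24 to 0.37. Deviations from a mean of 4 libraries depend on one another, so these values cannot tell whether the numbers pair the samples. With the replicate number as a block 15 members were called against 16 in the same 6 libraries without it, and 8 genes of the Paneth list, 1 of them higher, against 9. Summing copies by protein identity was not run, because protein sequences were not used here. Coding identity took its place, and this, like leaving out the pancreas-rich libraries, was chosen after seeing the data.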

Other observations

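Within B6 the members did not run in 1 order over the libraries, which is given as values picked after they were seen. The summed level of the Defa21 group was 33.3, 64.0, 23.1 and 39.95 CPM in B6 2, 3, 4 and 5, highest in B6 3 and lowest in B6 4. Defa34, of the Defa35 group, was 4.59, 7.37, 3.07 and 4.27 CPM and had the same highest and lowest library. Defa24 was lowest in B6 3 (1557, 1253, 1354 and 1937 CPM), as was Defa30 (814, 632, 722 and 964 CPM). Reg3g, an antibacterial lectin of the gut epithelium, was 648, 813, 191 and 612 CPM, also highest in B6 3 and lowest in B6 4. Lyz1 was 1697, 1582, 1251 and 1782.1 CPM. No correlation was computed, because the genes were picked after their values were seen.

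Reg3g itself was 93.5, 101, 431 and 103 CPM in C3H, overlapped between the strains and did not pass (log2 fold change -1.64, standard error 0.55, edgeR adjusted p = 0.0570).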
